A study of Mus musculus with 6 samples.

Results

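The neuregulins *Nrg1*, *Nrg2* and *Nrg3* and their receptors *Erbb2*, *Erbb3* and *Erbb4* were examined in the medial prefrontal cortex (mPFC) of *Shank3* transgenic (TG) mice. These 6 genes were taken by symbol, through the Ensembl identifiers of GENCODE mouse release M21, from the 18254 genes of the deposited table of normalized counts, and all 6 were present. None of them passed limma's test between *Shank3* TG and wild-type (WT) mPFC at an adjusted p of 0.05, and the values of the genotypes overlapped for every one. The gene nearest to the threshold was *Erbb3* (log2 fold change -0.29 ± 0.16, SE), which ranked 815 of 16714 tested genes by p-value.

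RNA sequencing was performed on 6 libraries, 3 from *Shank3* TG mice, which carry an EGFP-*Shank3* transgene that overexpresses the postsynaptic scaffold Shank3, and 3 from WT littermates. All mice were males of the C57BL/6J background aged 10 to 12 weeks. Each library held the pooled mPFC of a pair of mice of one genotype, so a replicate was a pool and not a single animal. The libraries keep the names of their labels, TG-1, TG-2 and TG-3 for the transgenic pools and likewise for WT, and the comparison asks how Shank3 overexpression relates to mRNA levels in this region. The promoter of the transgene is not given in the sources used here, and the tissue held all cell types of the dissected region.

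Neuregulins are growth factors made as membrane-anchored precursors, from which proteases such as BACE1 and ADAM10 free a part that carries an EGF-like domain. This domain binds ErbB3 or ErbB4 on the receiving cell, and the bound receptor pairs with another ErbB protein and signals through the MAP kinase and PI3 kinase routes. ErbB2 binds no known ligand and serves as the preferred partner. In cortex, ErbB4 is known from inhibitory interneurons, where neuregulin signalling shapes the synapses they make and receive, and ErbB3 from the oligodendrocyte lineage, which makes myelin. Both ErbB4 and the Shank3 complex are linked to the scaffold PSD-95 at the postsynaptic density.

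The EGF-like domain is the part of the ligands that the receptors recognise, and the coding sequence shows what the gene-level values of *Nrg1* add together. The 12 coding transcripts of *Nrg1* in GENCODE M21 (GRCm38, minus strand) hold 2 versions of it, each of 120 bases over 2 exons. The versions share their first 94 bases and differ at 12 of the 120. One version, in 8 of the 12 transcripts, spans chr8:31837698-31849398, and the other, in 4 of 12, spans chr8:31838298-31849398. The exon piece from 31849310 to 31849398 is common to both, and the second piece lies from 31837698 to 31837728 in one version and from 31838298 to 31838328 in the other. In *Nrg3* all 3 coding transcripts hold 1 version of 117 bases (chr14:38668261-39012054, minus strand). Introns are left out below, and the capitals mark the 6 cysteine codons that fold the domain.
Nrg1, version of 8 transcripts: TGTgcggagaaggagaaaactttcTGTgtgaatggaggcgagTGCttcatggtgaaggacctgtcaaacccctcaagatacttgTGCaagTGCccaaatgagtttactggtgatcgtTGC
Nrg1, version of 4 transcripts: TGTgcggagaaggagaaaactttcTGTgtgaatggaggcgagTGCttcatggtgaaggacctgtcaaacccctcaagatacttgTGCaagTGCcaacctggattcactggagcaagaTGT
Nrg3: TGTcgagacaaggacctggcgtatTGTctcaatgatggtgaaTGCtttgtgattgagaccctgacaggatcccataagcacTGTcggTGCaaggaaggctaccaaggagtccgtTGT

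The receptors end in the cytoplasm, where the last residues of ErbB2 bind the PDZ domain of Erbin. The last 8 codons before the stop codon are shown for *Erbb2* and, for comparison, *Erbb3*, with the last 3 codons in capitals, because the gene of this partner is described below. They lie at chr11:98436642-98436665 for *Erbb2* (plus strand) and chr10:128569371-128569394 for *Erbb3* (minus strand), each within a single exon.
Erbb2: tacctaggcctggatGTGCCAGTA
Erbb3: cctaaggctaacgccCAGAGAATT

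The deposited values are normalized counts, which the authors obtained by dividing Salmon's gene-level read estimates by DESeq2 size factors. They summed to between 28363967 and 29447717 per library. The test took in the 16714 genes that averaged 5 normalized counts or more, on the scale log2(normalized count + 1), and log2 fold changes are *Shank3* TG minus WT with the SE of limma's fit. On this scale a change of a low gene is understated. *Shank3* itself had 17470, 19004 and 16310 normalized counts in TG-1, TG-2 and TG-3 and 8374, 8173 and 6791 in WT-1, WT-2 and WT-3. All TG values lay above all WT values (log2 fold change 1.18 ± 0.10, adjusted p = 0.0643 in limma's test, or adjusted p = 0.000437 once the replicate number entered as a block). The cortical excitatory markers of the tissue were present in all 6 libraries. *Slc17a7*, for example, had 42302 to 45669 normalized counts in *Shank3* TG and 39218 to 40002 in WT, without overlap (as for 6.02% of all genes).

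The libraries of both genotypes carry the numbers 1 to 3, and those with the same number deviated together from their genotype means (correlations across genes of 0.302, 0.332 and 0.616). TG-1 with WT-2 (0.266) and TG-2 with WT-1 (0.227) came close to the first 2 of these. Combinations of a library numbered 3 with one of another number ran from -0.443 to -0.389. The numbers 1 and 2 were thus hardly set apart from each other. A fit with the number as a block was therefore set beside the fit of the genotype alone. Without the block, limma's test called 0 of the 16714 genes at an adjusted p of 0.05 (0.0%) and 336 at an unadjusted p of 0.05 (2.01%). With the block, the counts were 1 gene, *Shank3* (0.00598%), and 833 genes (4.98%). Libraries numbered 3 stood apart in both genotypes. TG-2 held olfactory bulb markers (*Th*, *Doc2g*, *Cdhr1* and *Eomes*) at a sum of 1425 normalized counts against 161 to 355 in the other 5 libraries. Of the choroid plexus markers, *Ttr* had 127, 22.9 and 445 normalized counts in TG-1, TG-2 and TG-3 and 14.3, 12.6 and 41.7 in WT-1, WT-2 and WT-3, higher in *Shank3* TG at each number, whereas *Kl* in TG-3 (64.4) lay within the range of the WT libraries. Values without TG-2 and without the libraries numbered 3 are therefore given where a result moves.

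Among the ligands, *Nrg1* (ENSMUSG00000062991, chromosome 8 from 31814551 to 32884029, minus strand) is the neuregulin best known for its role in myelination and in the wiring of interneurons. It had 148, 171 and 201 normalized counts in TG-1, TG-2 and TG-3 and 188, 188 and 173 in WT-1, WT-2 and WT-3. The TG libraries lay on both sides of the narrow WT range, and TG-1 was the lowest and TG-3 the highest of all 6. The log2 fold change was -0.09 ± 0.14 (95% interval -0.42 to 0.24, adjusted p = 0.9999 in limma's test, exact permutation p = 0.6), and it was 0.0203 without TG-1 and -0.24 ± 0.15 without the libraries numbered 3. The 3 pools of *Shank3* TG had an SD of 26.6, and those of WT one of 8.67. The table gives 1 value for the 18 annotated transcripts of *Nrg1*, so the versions of the EGF-like domain printed above could not be told apart.

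*Nrg2* (ENSMUSG00000060275, chromosome 18 from 36017652 to 36197380, minus strand) encodes a close relative of neuregulin 1 that binds both ErbB3 and ErbB4. Its values were 269, 154 and 225 in TG-1, TG-2 and TG-3 and 246, 157 and 145 in WT-1, WT-2 and WT-3. The values fell into a higher set (both libraries numbered 1, and TG-3) and a lower set (both libraries numbered 2, and WT-3), which mixed the genotypes. This was the most variable member, with a log2 fold change of 0.24 ± 0.26 (95% interval -0.36 to 0.85, exact permutation p = 0.6). With the number as a block the SE was 0.15 and the adjusted p 0.996. The difference was 0.47 ± 0.25 without TG-2 and 0.0484 ± 0.29 without the libraries numbered 3.

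*Nrg3* (ENSMUSG00000041014, chromosome 14 from 38368952 to 39473088, minus strand) encodes a ligand of ErbB4 that is largely confined to the nervous system. It had 1383, 1273 and 1354 normalized counts in TG-1, TG-2 and TG-3 and 1251, 1359 and 1270 in WT-1, WT-2 and WT-3. Both genotypes spanned nearly the same range, and the interval was the narrowest of the 6 genes. The log2 fold change was 0.05 ± 0.08 (95% interval -0.13 to 0.22, exact permutation p = 0.4), which in linear terms is 0.914-fold to 1.17-fold of WT. It was 0.0820 without TG-2 and 0.0251 without the libraries numbered 3.

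**Figure D1:**
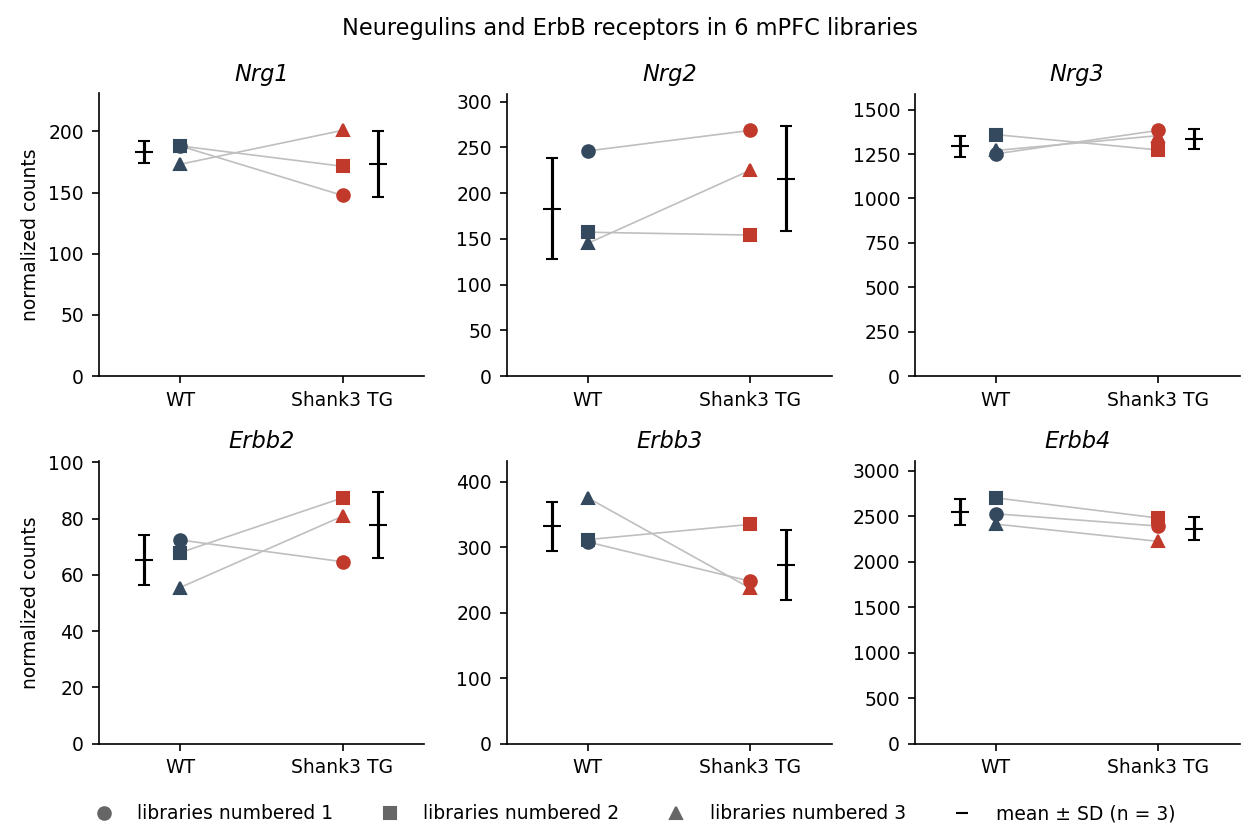
Normalized counts (y axis, from 0) of each neuregulin and ErbB receptor in the 3 WT and 3 *Shank3* TG libraries, with grey lines joining libraries of the same number and black bars for the mean ± SD (n = 3). The genotypes overlap in all 6 panels, and *Erbb4* is the gene in which each line runs downwards, from 2412 to 2700 in WT to 2222 to 2478 in *Shank3* TG.

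Among the receptors, *Erbb2* (ENSMUSG00000062312, chromosome 11 from 98412470 to 98437716, plus strand) encodes the partner without a known ligand. It had 64.7, 87.4 and 80.8 normalized counts in TG-1, TG-2 and TG-3 and 72.4, 67.9 and 55.5 in WT-1, WT-2 and WT-3. TG-2 and TG-3 lay above all WT libraries, whereas TG-1 lay within the WT range. The log2 fold change was 0.24 ± 0.19 (95% interval -0.20 to 0.69, exact permutation p = 0.3), 0.15 without TG-2 and 0.0996 without the libraries numbered 3. The 3' end of *Erbb2* shares 9 exonic bases with *Mien1* on the opposite strand, which was the only gene of the table that overlapped a member (log2 fold change of *Mien1* 0.07 ± 0.07).

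*Erbb3* (ENSMUSG00000018166, chromosome 10 from 128567523 to 128589652, minus strand) encodes the receptor that depends on its partner's kinase for most of its signal. It had 248, 335 and 237 normalized counts in TG-1, TG-2 and TG-3 and 308, 312 and 375 in WT-1, WT-2 and WT-3. TG-1 and TG-3 lay below all WT libraries and TG-2 lay between the WT values. The mean was 273 ± 53.6 in the TG libraries and 332 ± 37.9 in the WT libraries (SD, n = 3). The log2 fold change was -0.29 ± 0.16 (95% interval -0.66 to 0.08, exact permutation p = 0.3). In limma's fit the adjusted p was 0.9999, and 0.996 with the number as a block, where *Erbb3* ranked 1217 of 16714.

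*Erbb3* was lower in *Shank3* TG with any one library left out, from -0.44 to -0.20. Without TG-2, the library with olfactory bulb markers, it was -0.44 ± 0.14 (adjusted p = 0.9998 in limma's test, the unadjusted one being under 0.05). Leaving out the libraries numbered 3 gave -0.10 ± 0.16, since WT-3 was the highest and TG-3 the lowest of the 6. By number, TG minus WT was -0.31, 0.10 and -0.66 on the log2 scale.

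*Erbb4* (ENSMUSG00000062209, chromosome 1 from 68032186 to 69108059, minus strand) encodes the receptor through which neuregulins act on interneurons. It had 2390, 2478 and 2222 normalized counts in TG-1, TG-2 and TG-3 and 2525, 2700 and 2412 in WT-1, WT-2 and WT-3. The genotypes overlapped, but each TG library was below the WT library of its number, by 0.08, 0.12 and 0.12 on the log2 scale. *Erbb4* was the single member of the 6 with such an order, and 2208 of the 16714 tested genes (13.2%) were lower in *Shank3* TG at each number, with 1933 (11.6%) higher at each number. The log2 fold change was -0.11 ± 0.08 (95% interval -0.29 to 0.08, exact permutation p = 0.2), and with the block the SE was 0.05 and the adjusted p 0.996. It was -0.0635 when TG-3 was left out and -0.0639 when WT-2 was. Decreases in *Erbb4* past 0.818-fold of WT lay outside the interval.

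**Figure D2:**
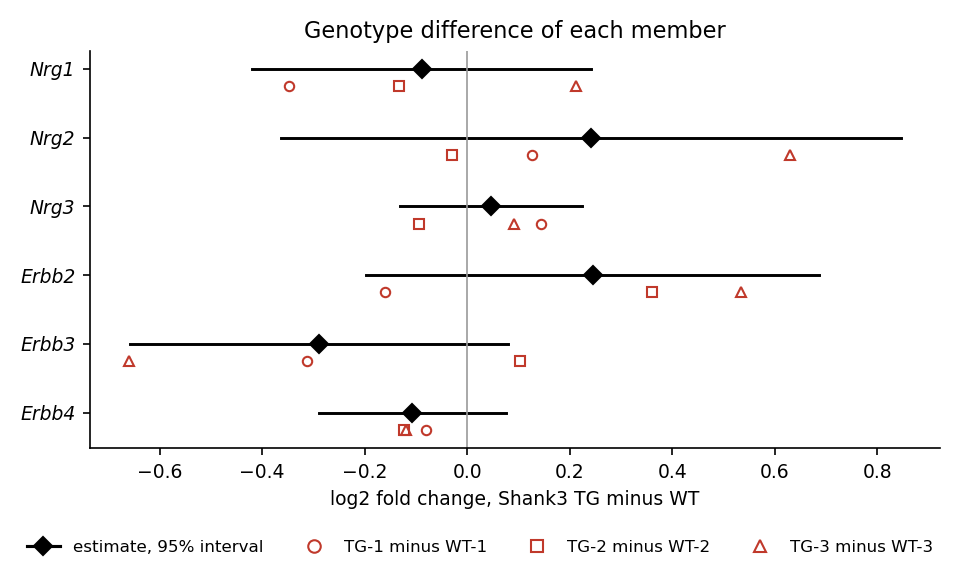
Log2 fold change (x axis, *Shank3* TG minus WT) of the 6 genes, with black diamonds for the estimate of limma's fit, lines for its 95% interval and open red symbols for the difference between the libraries of each number. Every interval includes 0, the widest being that of *Nrg2* (-0.36 to 0.85) and the narrowest that of *Nrg3* (-0.13 to 0.22).

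Of the 6 genes, 3 had higher and 3 lower estimates in *Shank3* TG, with a median log2 fold change of -0.0208. Among all 16714 tested genes the median was -0.0037, with 51.4% lower, and the middle of the distribution, from the lower to the upper quartile, ran from -0.077 to 0.064. The count of members with an unadjusted p-value under 0.05 was 0, with or without the block, beside 2.01% and 4.98% of all genes. None of the 6 had genotypes that did not overlap, beside 1007 of 16714 genes (6.02%). For any single gene, the smallest two-sided p of the exact permutation test of 3 libraries against 3 is 0.1. The SEs of the 6 genes ran from 0.08 to 0.26, and the median SE of all tested genes was 0.13.

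On the scale of normalized counts per kb of the union of a gene's exons, *Erbb4* had the highest mean level of the 6 genes over all libraries and in WT, and *Nrg3* in *Shank3* TG. *Erbb4* was at 191 ± 10.5 per kb in the TG libraries and 206 ± 11.7 in the WT libraries (SD, n = 3). *Nrg3*, the most abundant ligand, was at 196 ± 8.38 and 190 ± 8.46. These neighbours did not differ beyond their spread, and with the length of the longest coding transcript *Nrg3* came first. *Nrg2* followed at 68.8 ± 18.4 per kb in *Shank3* TG and 58.3 ± 17.6 in WT, and *Erbb3* at 45.4 ± 8.91 and 55.1 ± 6.30. The values of *Nrg2* and *Erbb3* overlapped as well. *Nrg1* was at 16.7 ± 2.57 and 17.7 ± 0.838 per kb, and *Erbb2* was last at 14.9 ± 2.24 and 12.5 ± 1.68, overlapping *Nrg1* in *Shank3* TG.

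As shares of the 3 neuregulins per kb, *Nrg3* made up 69.9% ± 3.66 in *Shank3* TG and 71.6% ± 5.25 in WT, *Nrg2* 24.2% ± 4.43 and 21.8% ± 5.40, and *Nrg1* 5.99% ± 1.11 and 6.66% ± 0.156 (SD, n = 3). Of the 3 receptors, *Erbb4* made up 76.1% ± 2.45 in *Shank3* TG and 75.2% ± 2.24 in WT, *Erbb3* 17.96% ± 2.11 and 20.2% ± 2.69, and *Erbb2* 5.93% ± 0.815 and 4.57% ± 0.594. Thus the same ligand and the same receptor dominated in both genotypes. Exact two-sided permutation tests of the 6 shares gave p-values from 0.2, for *Erbb2*, to 0.8, for *Nrg3*, before any adjustment. With the coding sequence as the length, *Nrg1* rather than *Nrg2* was the second ligand over all 6 libraries (11.8% against 9.83%).

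**Figure D3:**
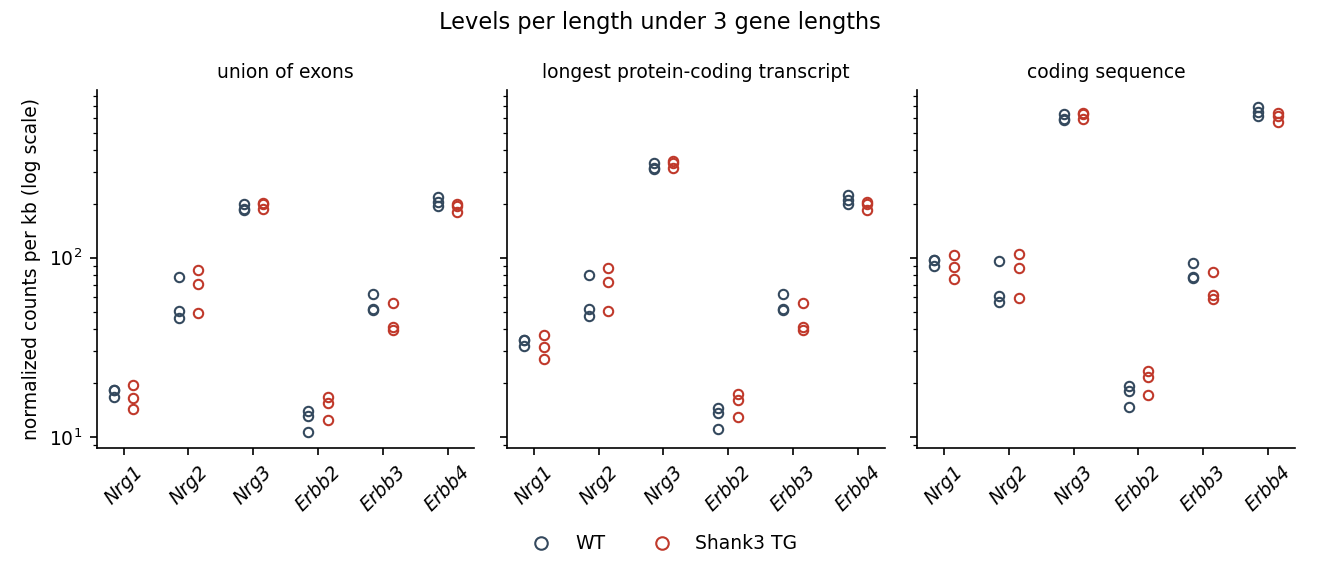
Normalized counts per kb (y axis, log scale) of the 6 genes in WT (dark) and *Shank3* TG (red) libraries, each circle 1 library, with the gene length taken in 3 ways. *Erbb4* and *Nrg3* stand above the other 4 genes in every panel, whereas the place of *Nrg1* depends on the length, from 17.2 per kb over the union of exons to 92.1 per kb over the coding sequence (mean of 6 libraries).

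The cells that are known to make these receptors were followed through lists of marker genes. All 12 mature oligodendrocyte markers were lower in *Shank3* TG, with a median log2 fold change of -0.44, from -0.28 for *Cnp*, a myelin enzyme, to -0.59 for *Ermn*, a cytoskeletal protein of myelinating cells. At an unadjusted p of 0.05, limma's test called 11 of the 12 without the block and 12 with it, beside 2.01% and 4.98% of all genes, and at an adjusted p of 0.05 it called 0. Their sum ranged from 80411 to 103942 normalized counts in *Shank3* TG and from 119741 to 121331 in WT, and none was at 0. TG-2, the TG library with the highest *Erbb3*, was also the one with the highest sum of these markers. Of the 5 oligodendrocyte precursor markers, 4 were lower and 1 higher, with a median of -0.0509 and sums from 3799 to 4621 in *Shank3* TG and from 4177 to 4694 in WT. At an unadjusted p of 0.05, limma's test called 1 of the 5 without the block (beside 2.01% of all genes) and with it (beside 4.98%), which was *Vcan*, a matrix proteoglycan (log2 fold change -0.32 ± 0.09, no overlap between the genotypes, as for 6.02% of all genes, named after its values were seen).

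*Erbb3* was set against the mean log2 level of each list within each library. Against the mature markers it was at -3.21 ± 0.142 in the TG libraries and -3.37 ± 0.0625 in the WT libraries (SD, log2 units). The difference of 0.157 was in the direction opposite to that of *Erbb3* itself and had an exact two-sided permutation p of 0.2. It was 0.0904 without TG-2 and 0.266 without the libraries numbered 3. Against the precursor markers the difference was -0.217 (exact permutation p = 0.2). In such bulk tissue, fewer cells of a type and less RNA per cell cannot be told apart, and the part of the oligodendrocyte markers in the values of *Erbb3* was not tested.

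*Erbb4* was treated in the same way against markers of inhibitory neurons, of which 6 of the 7 listed genes were in the table. Their median log2 fold change was -0.0492, from -0.15 for *Lhx6*, a transcription factor of interneurons, to 0.06 for *Gad1*, the enzyme that makes GABA. At an unadjusted p of 0.05, limma's test called 0 of the 6, with or without the block. Their sums ranged from 14641 to 15503 normalized counts in *Shank3* TG and from 14457 to 15614 in WT, and none was at 0. *Erbb4* exceeded their mean log2 level by 0.663 ± 0.135 in *Shank3* TG and 0.725 ± 0.120 in WT (SD, n = 3). This difference of -0.0613 had an exact two-sided permutation p of 0.5, and leaving out TG-3 gave 0.0145, leaving out TG-2 gave -0.114. Against *Gad1* and *Gad2* alone it was -0.155, and the p of 0.1 was the smallest that 3 libraries against 3 can give.

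For the other cell types of the tissue the median log2 fold changes of the marker lists were -0.0115 for excitatory neurons, -0.0074 for astrocytes, -0.0096 for microglia and 0.0403 for endothelial cells, with 0 genes of any of these lists called at an unadjusted p of 0.05 without the block. The 6 leptomeningeal markers had a median of 0.31, with 2 called higher at that threshold (beside 2.01% of all genes) and 3 with the block (beside 4.98%), and the 6 striatal neuron markers one of -0.19, with 0 called. The 5 choroid plexus markers had a median of 0.50. Only *Ttr* was called higher among them, without the block (beside 2.01% of all genes) and with it (beside 4.98%). At each number 3 of the 5 were higher, as were 3 of the 6 leptomeningeal markers, beside 11.6% of all genes. The 4 olfactory bulb markers had a median of 0.44, with 0 called. Their estimates were all higher through TG-2, and each of the 4 was lower in *Shank3* TG at the numbers 1 and 3. The part of these cell types in the values of the 6 genes was not tested.

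**Figure D4:**
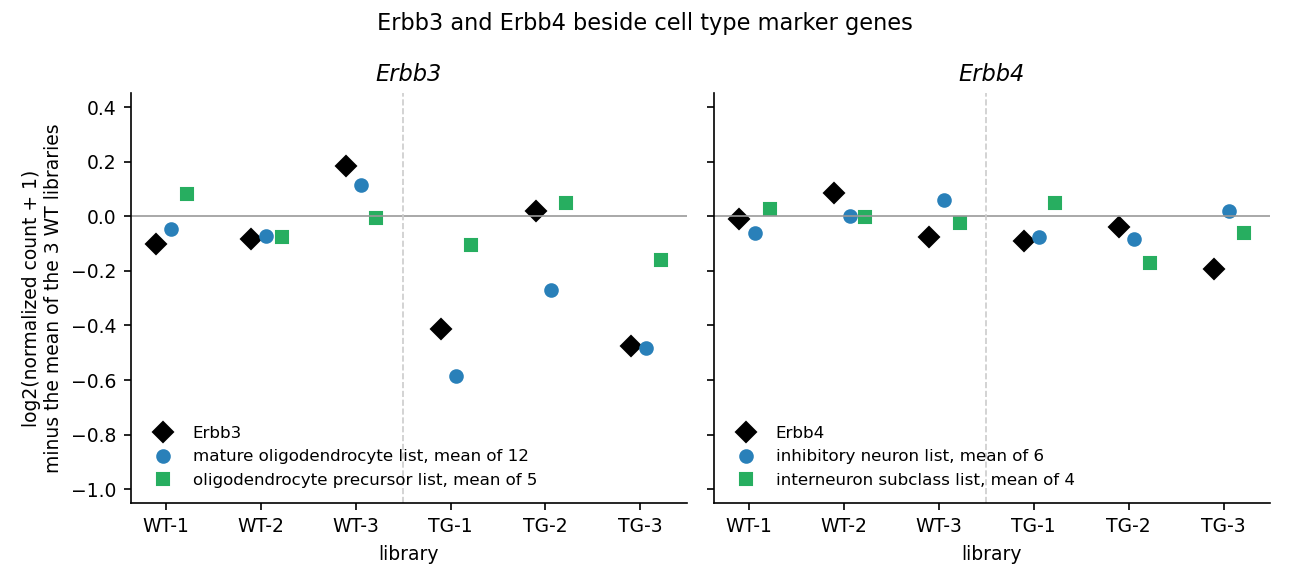
Log2(normalized count + 1) of *Erbb3* (left) and *Erbb4* (right) in each library, relative to the mean of the 3 WT libraries (y axis), beside the mean of marker lists for oligodendrocytes and inhibitory neurons. The mature oligodendrocyte list lies below 0 in all 3 TG libraries and *Erbb3* in TG-1 and TG-3, whereas the inhibitory neuron list, with a mean genotype difference of -0.0458, stays near 0.

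The other genes of the pathway were followed in 6 lists of 65 genes, all of them in the table and 62 of them tested. The ligands *Areg*, *Ereg* and *Epgn* had means under 5 normalized counts and were not tested. Limma's test called none of the 62 at an unadjusted p of 0.05, beside 2.01% of all genes, and 35 had higher and 27 lower estimates. Their median log2 fold change was 0.0067, against -0.0037 for all genes. With the block, 2 of the 62 had an unadjusted p-value under 0.05, beside 4.98%, and 0 an adjusted one. The genotypes did not overlap for 3 genes, all lower in *Shank3* TG, beside 6.02% of all genes. At each number, 8 were lower and 4 higher, beside 13.2% and 11.6%.

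*Egfr*, which encodes the receptor of EGF, had 551 to 583 normalized counts in *Shank3* TG and 548 to 592 in WT (log2 fold change 0.0076 ± 0.08). The other ErbB ligands, of which 5 were tested, had a median of -0.0165. *Tgfa*, a ligand of EGFR and the one with the most normalized counts, had 450, 550 and 538 normalized counts in TG-1, TG-2 and TG-3 and 803, 507 and 660 in WT-1, WT-2 and WT-3. The genotypes overlapped through WT-2 (log2 fold change -0.34 ± 0.17, exact permutation p = 0.3). *Hbegf* and *Btc*, both EGFR and ErbB4 ligands, were higher in the libraries numbered 3 than in the others of the same genotype, by 0.56 and 0.60 on the log2 scale in *Shank3* TG and by 0.54 and 0.61 in WT. Both were named after their values were seen.

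The 9 genes of proteases that process neuregulins had 8 higher and 1 lower estimate, all within -0.0054 to 0.10. *Bace1*, whose product cuts neuregulin 1, had the most normalized counts of them, 3540 ± 82.2 in the TG libraries and 3553 ± 100.2 in the WT libraries (SD; log2 fold change -0.0054 ± 0.07). The 31 adaptors and kinases that carry the signal had 16 higher and 15 lower estimates, from -0.34 to 0.13. *Mapk3*, which encodes ERK1, passed an unadjusted p of 0.05 with the block and not without it (log2 fold change 0.13 ± 0.08, higher at each number), and *Ptpn11*, a phosphatase that helps the signal along, had genotypes that did not overlap, with a log2 fold change of -0.09 ± 0.07 (exact permutation p = 0.1).

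Of the 11 genes for inhibitors and turnover of ErbB receptors, 5 had higher and 6 lower estimates. *Nedd4*, a ubiquitin ligase, had the most normalized counts (log2 fold change 0.0170 ± 0.07). *Lrig3*, a membrane protein of a family that restrains ErbB receptors, had 44.4, 43.6 and 47.8 normalized counts in TG-1, TG-2 and TG-3 and 61.9, 56.3 and 60.4 in WT-1, WT-2 and WT-3. The genotypes did not overlap (log2 fold change -0.39 ± 0.17, exact permutation p = 0.1, adjusted p = 0.9999 in limma's test).

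Of the 5 PDZ partners of the receptors, *Dlg4*, which encodes PSD-95, had the most normalized counts, 22763 to 26402 in *Shank3* TG and 20472 to 26764 in WT (log2 fold change 0.07 ± 0.12). *Erbin*, which binds the end of ErbB2, had 1965, 2015 and 1445 normalized counts in TG-1, TG-2 and TG-3 and 2223, 2337 and 2057 in WT-1, WT-2 and WT-3. All 3 TG values lay below all 3 WT values, TG-3 by the most. The log2 fold change was -0.30 ± 0.13 (exact permutation p = 0.1). With the block *Erbin* passed an unadjusted p of 0.05 and had an adjusted p of 0.568 in limma's test. *Mapk3*, *Ptpn11*, *Stat5a*, *Lrig3* and *Erbin* were named after their values were seen.

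**Figure D5:**
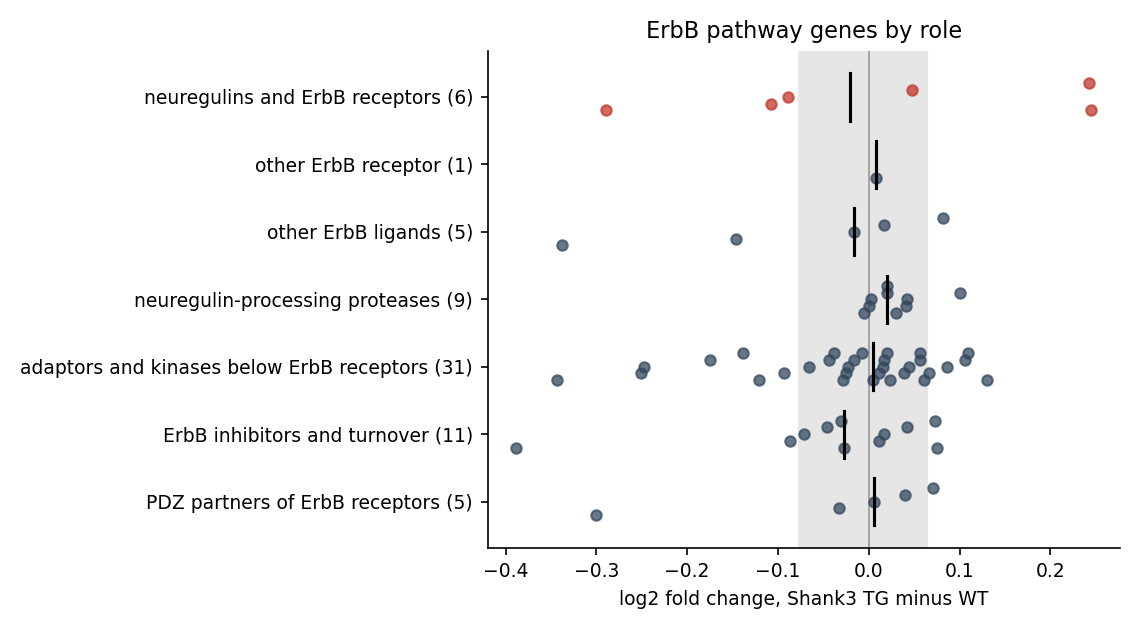
Log2 fold change (x axis, *Shank3* TG minus WT) of the 6 neuregulins and ErbB receptors (red) and of the 62 tested pathway genes (dark) by role, each point 1 gene, with the number of genes in brackets, a black line for the median of each row and grey shading from the lower to the upper quartile of all 16714 tested genes. The medians of the lists lie between -0.0272 and 0.0201, and the lowest points are *Lrig3* (-0.39), *Stat5a* (-0.34), *Tgfa* (-0.34) and *Erbin* (-0.30).

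For each member, the genes whose log2 levels followed it most closely over the 6 libraries were sought among 13441 genes that averaged 50 normalized counts or more. Pearson's r is given as a description over 6 points, each a library with its own depth and cell makeup. *Erbb3* was followed most closely by *Cd3d* (0.994), *Caprin2* (0.989) and *Hhip* (0.978), and *Erbb4* by *Map4k4* (0.990), *Trpm7* (0.990) and *Arrdc3* (0.989). For *Erbb2* they were *Col13a1* (0.977), *Epha4* (0.973) and *Trappc5* (0.965). The ligand *Nrg1* had *Efna1* (0.990), *Abca17* (0.984) and *Efcab5* (0.981), *Nrg2* had *Grina* (0.996), *Foxk1* (0.992) and *Map1lc3b* (0.988), and *Nrg3* had *Cdkn2d* (0.982), *Diaph1* (0.979) and *Mff* (0.979). No gene appeared for more than 1 member.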

How the data were processed

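The authors prepared stranded mRNA libraries, estimated transcript abundance with Salmon 0.9.1 on GRCm38 with GC bias correction, summed it to genes and scaled each library by its DESeq2 1.19.11 size factor (R 3.6.0). The deposited signal is these normalized counts. The transcript annotation they used is not given in the sources used here. At most 41.1% of the values between 0 and 20 in a library lay within 0.05 steps of a multiple of one step, so whole reads were not recovered, no count test was run and no counting error is given.

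Positions, lengths and coding sequences came from GENCODE M21 for GRCm38, which holds 18231 of the 18254 genes. Genes averaging 5 normalized counts or more were fitted with limma 3.58.1 in R 4.3.3 on log2(normalized count + 1), with the genotype alone, all 6 libraries and eBayes with a trend. P-values are two-sided, adjusted by Benjamini and Hochberg over all 16714 genes, with a threshold of 0.05. Single genes, shares and levels relative to marker lists were also compared by exact permutation (scipy 1.17.1). The limma fit with the genotype alone was tested on simulated data with known changes.

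The named genes were the 6 members, *Shank3*, the most abundant gene of each pathway list and any with an unadjusted p under 0.05. They also took in the extreme genes of the oligodendrocyte and inhibitory neuron lists, the 3 most similar genes of each member and overlapping genes. Outside this rule were those said to be named after their values were seen, and *Slc17a7*, *Ttr* and *Kl*, also named so. The olfactory bulb and choroid plexus lists are given whole. One gene that this rule names is not reported here. The members and lists were chosen with earlier results of these data known. The pairing of the replicate numbers comes from the data: same-numbered libraries correlated at 0.302, 0.332 and 0.616 in their deviations from the genotype means, and other combinations at -0.443 to 0.266. Replicates are pools of animals, and p-values measure the spread between pools. Alternatives were other pseudocounts, filters, scalings and eBayes options, the replicate block, a term for or omission of the libraries numbered 3, an empirical null, other marker lists and gene lengths, and each library left out in turn.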

Additional observations from a re-analysis of the deposited data

How the results depend on the processing

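The replicate block changed no call of a member, and the unadjusted counts it gave were 833 of all genes, against 336 without it, and 2 of the pathway genes. No member reached an adjusted p under 0.05 under any of the 18 alternatives, where the lowest was 0.564 for *Erbb3* with the empirical null (unadjusted p under 0.05). *Nrg2*, *Nrg3*, *Erbb2*, *Erbb3* and *Erbb4* kept their direction under all 18, and *Nrg1* under 17, being 0.0203 without TG-1. Leaving out one library in turn gave log2 fold changes of -0.20 to 0.0203 for *Nrg1*, 0.0671 to 0.48 for *Nrg2*, 0.0221 to 0.0835 for *Nrg3*, 0.13 to 0.37 for *Erbb2*, -0.44 to -0.20 for *Erbb3* and -0.15 to -0.0635 for *Erbb4*. *Erbb3* relative to oligodendrocyte markers was 0.0904 to 0.232 with one library left out and -0.217 with the precursor list, and *Erbb4* relative to inhibitory neuron markers was -0.130 to 0.0145, the last without TG-3.

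Of all genes, 1 had an adjusted p under 0.05 with upper-quartile scaling, with robust eBayes, with the block, with the term for the libraries numbered 3 and without those libraries, and 26 had one with the empirical null. With one library left out the count was 0 to 1. An unadjusted p under 0.05 was found for 717 genes with the term for the libraries numbered 3, for 1215 with the empirical null and for 219 to 417 with one library left out, the lowest without TG-1. Of the 62 pathway genes it was found for 1 with the pseudocounts 0.1 and 5, with quantile normalization and without the trend, for 2 with the term for or without the libraries numbered 3, for 3 with the empirical null and for 0 to 2 with one library left out. Of the 6 members it was found for 1, *Erbb3*, with the empirical null, and for 0 to 1 with one library left out, the 1 being *Erbb3* without TG-2. The cause of these shifts was not tested.

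The shares over all 6 libraries moved with the gene length. With the longest coding transcript they were 7.75% for *Nrg1*, 15.2% for *Nrg2* and 77.1% for *Nrg3*. With the coding sequence they were 11.8%, 9.83% and 78.4%, and 2.62% for *Erbb2*, 10.3% for *Erbb3* and 87.1% for *Erbb4*. With one library left out they were 6.23% to 6.65%, 21.9% to 23.8%, 69.9% to 71.8%, 4.98% to 5.51%, 18.2% to 19.5% and 75.2% to 76.3% in that order of genes. The number of reads behind each value is unknown, and 3 pools a genotype set the width of the intervals.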
